A study of Mus musculus with 8 samples.

Results

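The genes described are Trp53, which encodes the transcription factor p53, and 9 genes that p53 is known to control or that control p53: Mdm2, Cdkn1a, Ccng1, Bax, Bbc3, Eda2r, Phlda3, Sesn2 and Trp53inp1. They were chosen by symbol, and all 10 had a row among the 32285 genes of the deposited single-cell matrix. Embryonic kidneys of 4 male mice at E17.5 were dissociated and pooled after the cells of each mouse had been marked with an oligonucleotide tag. Mice 1 and 2 were Trim28Δ/Δ: they carried floxed Trim28 alleles (Trim28f) together with the Six2-cre transgene, Tg(Six2-EGFP/cre)1Amc/J, which is expressed in nephron progenitor cells and deletes Trim28 in them and in the cells they form. Mice 3 and 4 were Trim28f/f, with the floxed alleles intact. All 4 were on a C57BL/6 background, and each mouse counted as 1 replicate, so n was 2 per genotype. The cells came out of 1 droplet pool, and stroma, ureteric bud, vessels and blood cells do not arise from the Six2-expressing progenitors.

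p53 is kept low in most cells because MDM2, a ubiquitin ligase that p53 itself induces, marks it for degradation. When DNA damage, oncogene activity or metabolic stress releases it, p53 raises genes that stop the cell cycle, such as Cdkn1a, genes that drive mitochondrial apoptosis, such as Bax and Bbc3, and genes that dampen growth signals or its own activity. In the kidney, nephron progenitors are sensitive to the dose of p53 and of MDM2, and Cdkn1a is a familiar marker of tubular stress. Since p53 is regulated mainly as a protein, the mRNA of Trp53 does not report its activity.

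The 4 mice gave 7348 cells, with 1320, 1451, 2724 and 1853 cells in mice 1 to 4, and median depths of 16519 to 17411 unique molecular identifiers (UMIs) per cell. The cells formed 23 clusters. One of 37 cells, cluster 22, was too small to name or test and was left out, and the others were joined into 18 classes. A class was called X-like where a list of markers gave its name, and kept its cluster number otherwise. The nephron lineage held 10 classes: nephron progenitor cells (NPC-like), podocytes (Pod-like), early proximal tubule (ErPT-like), proximal tubule (PT-like), loop of Henle (LOH-like), distal tubule (DT-like), and clusters 1, 5, 6 and 7. Cluster 1 was led by the mitotic genes Ube2c and Cenpf, cluster 5 by Spon1, Epha4 and Fgf8, cluster 6 by Aadat, Cryab and Serpina6, and cluster 7 by Pcp4, Lsp1 and Tagln with Wt1. The 8 other classes were ureteric bud (UB-like), collecting duct (CD-like), stroma, cluster 15 (led by Pdgfrb and Ebf1), mural, endothelia, immune and erythroid cells. Trim28 itself had 27.2 and 24.9 CPM (UMI counts scaled to a common library size) in the NPC-like cells of mice 1 and 2 against 143 and 171 CPM in those of mice 3 and 4 (log2 difference −2.60 ± 0.21 SE, edgeR adjusted p 0.000679). It was called lower in 8 of the 10 lineage classes and in none of the other 8. The UMIs are read from the 3′ end of the transcript, outside the deleted exons, so this level does not check the deletion itself.

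Mouse 3 stood apart from the other 3 mice. The summed level of 10 genes raised by low oxygen (Vegfa, Egln3, Bnip3, Ankrd37, Pdk1, Ndrg1, Slc2a1, Adm, Car9 and Pfkfb3) was highest in mouse 3 in 18 of 18 classes, with a median of 3.72 times the level of mouse 4. Over the classes the sum ran from 344 to 4073 CPM in mouse 3, against 196 to 947 CPM in mouse 4 and 193 to 996 CPM in mice 1 and 2. Of these genes 9 could be tested, and Car9 was at 5.26 CPM or less in every class and mouse. Between the genotypes 80 of 136 tests of these genes were lower in Trim28Δ/Δ at an edgeR unadjusted p below 0.05, with a median log2 difference of −1.25. Of all gene-by-class tests 6.71% passed that threshold in either direction. Only Pfkfb3 in DT-like cells was called (−2.43 ± 0.48 SE, edgeR adjusted p 0.0499), where 0.334% of all tests were. One cluster of collecting duct cells, cluster 14, held 220 cells of mouse 3 and 1 cell of the other mice, whereas cluster 11 of the same CD-like class held 110, 121, 3 and 91 cells of mice 1 to 4. Values with mouse 3 or mouse 4 left out are given below for the results named, and the part of the low-oxygen genes in any difference was not tested.

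Sequences of the start regions are shown first because p53 binds a short repeated element, the p53 consensus decamer, a run of purines, C, A or T bases, G and pyrimidines that reads alike on both strands and is bound best as an adjoining pair. RefSeq windows (GRCm38.p6) from 250 bases before to 50 bases after the start were found for 9 of the 10 genes, some with several starts (12 windows). An exact decamer was present in 5 of the 12 windows (41.67%), against 8.36% of all 32851 windows. The upstream Cdkn1a window (chr17:29090729-29091028) held 2, and those of Bax, Mdm2, Ccng1 and Trp53 held 1 each. With 1 mismatch allowed outside the central bases, 7 windows held one (58.33% against 39.56%). Only the upstream Cdkn1a window held a pair no more than 13 bases apart, a feature of 1.39% of all windows. The other Cdkn1a window, farther downstream at chr17:29093519-29093818, held no decamer even with 1 mismatch. The stretches are printed 5′ to 3′ on the strand of the gene, with the decamers in capitals. Each chromosome position is that of the whole printed stretch with its flanking bases. The distances before the start are those of the decamers, and those of Cdkn1a count from the start of the upstream window.
Cdkn1a, pair of adjoining decamers at chr17:29090918-29090957 (+), 51 to 32 bases before the start: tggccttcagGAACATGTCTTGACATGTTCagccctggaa
Bax, chr7:45467080-45467109 (−), 201 to 192 bases before the start: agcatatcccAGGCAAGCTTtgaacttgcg
Mdm2, chr10:117710925-117710954 (−), 186 to 177 bases before the start: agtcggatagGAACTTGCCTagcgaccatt
Ccng1, chr11:40755452-40755481 (−), 185 to 176 bases before the start: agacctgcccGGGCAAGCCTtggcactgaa
Trp53, chr11:69580274-69580303 (+), 75 to 66 bases before the start: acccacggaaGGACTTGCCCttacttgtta
Cdkn1a, the other exact decamer at chr17:29090896-29090925 (+), 73 to 64 bases before the start: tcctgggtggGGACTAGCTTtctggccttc
In the adjoining Cdkn1a pair the first decamer matched without a mismatch and the second with 1 mismatch outside the core. A match is a description of the letters and not of binding, and p53 sites farther from the start or within introns lie outside these windows.

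Levels are given as CPM of the UMIs summed over all cells of a class in 1 mouse, on library sizes scaled by the trimmed mean of M values (TMM), in the order mouse 1, mouse 2 (both Trim28Δ/Δ), mouse 3, mouse 4 (both Trim28f/f). In these sums, fewer cells that express a gene and less RNA per cell cannot be told apart. The summed levels of gene lists, above and below, are CPM on plain UMI totals instead. The order of classes is a description, without a test, since the same cells defined the clusters. Neighbours in an order are called apart where the ranges of the 4 mice did not overlap. RNA free in the droplets was read from barcodes with 10 to 100 UMIs. Within that RNA, whose share of a cell's UMIs was not measured, so that its level is no floor for a cell, Cdkn1a stood at 103 CPM, Bax at 120, Trp53 at 62.9, Phlda3 at 32.0, Mdm2 at 24.9, Ccng1 at 15.4, Bbc3 at 10.2, Trp53inp1 at 8.72, Sesn2 at 7.45 and Eda2r at 0.54 CPM.

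**Figure D1:**
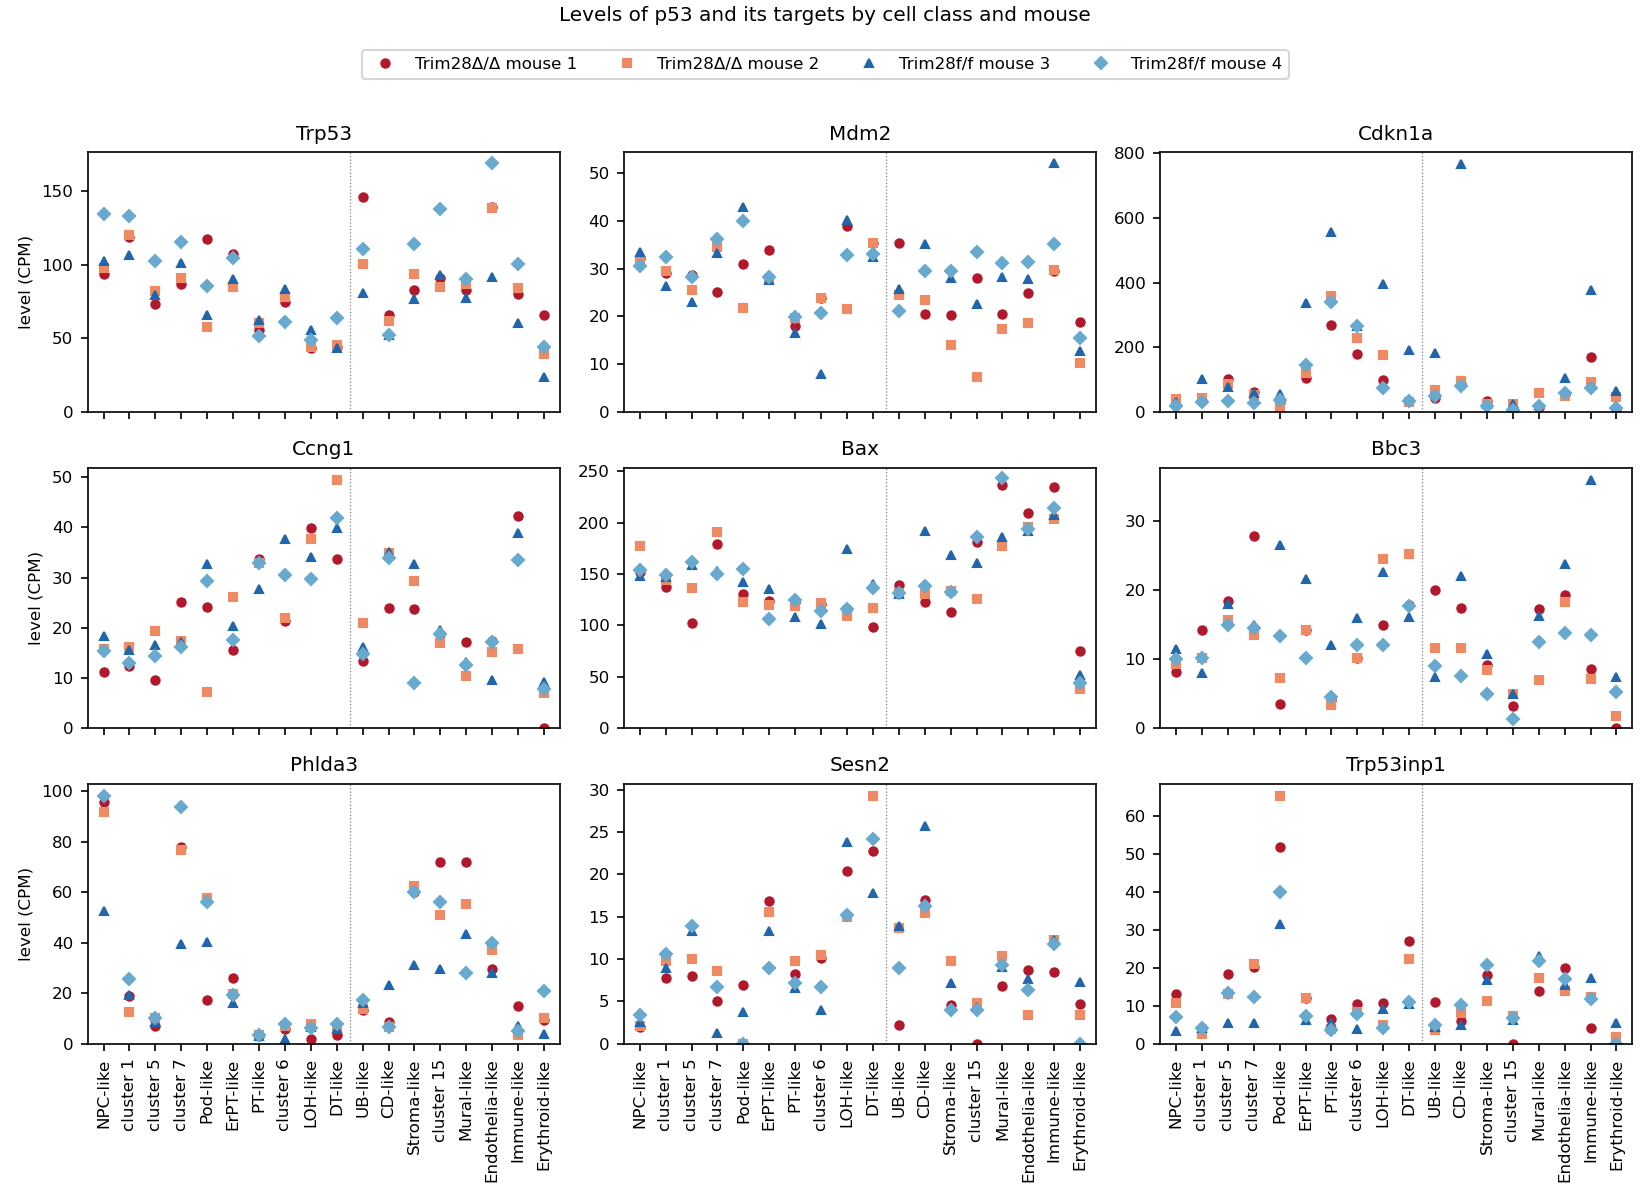
Level of each of the 10 genes except Eda2r in the 18 classes, in CPM on a linear scale, with 1 point per mouse. Classes left of the dotted line belong to the nephron lineage. Cdkn1a in mouse 3 lies above mouse 4 in 17 of 18 classes, whereas Trp53 and Bax vary less between the classes than Cdkn1a.

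Trp53 (chr11:69580359-69591873, GRCm38) was measured in every class with a narrow range of levels. It was highest in endothelia, with 139, 138, 91.5 and 169 CPM, and lowest in erythroid cells, with 65.7, 39.6, 23.8 and 44.1 CPM, a ratio of 3.11 between the class means. Cluster 1 with its mitotic genes (mean 120 CPM), UB-like cells (109 CPM) and NPC-like cells (107 CPM) followed endothelia, and the LOH-like (47.7 CPM) and DT-like cells (49.2 CPM) were the lowest of the lineage. No class was apart from its neighbour in that order. Between the genotypes the log2 difference of Trp53 ran from −0.38 to 0.57 over the 18 classes, and the 95% interval lay within 1 log2 unit of zero in 16 of them.

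The NPC-like class joins clusters 9 and 10 in shares that differed between mice: cluster 10 gave 13 of 45, 31 of 69, 86 of 215 and 218 of 393 cells in mice 1 to 4. In NPC-like cells Trp53 had 93.6, 97.5, 102 and 135 CPM, so both Trim28Δ/Δ mice lay below both Trim28f/f mice by a small margin (log2 difference −0.31 ± 0.19 SE, edgeR adjusted p 0.675). Without mouse 3 the difference was −0.48 ± 0.15 SE and passed the test (edgeR adjusted p 0.0217, with 2.07% of all tests called in that setting), and without mouse 4 it was −0.10 (adjusted p 0.771). The part of the cluster mix in this difference was not tested. In endothelia, which the transgene does not reach, mouse 3 was the low one. Without mouse 4 the log2 difference of Trp53 there was 0.60, and without mouse 3 it was −0.29. Endothelia join clusters 4 and 21, and cluster 21 gave 35 of 165, 23 of 121, 7 of 158 and 16 of 114 cells in mice 1 to 4, a mix whose part in the difference was not tested.

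Mdm2 (chr10:117688875-117710758), the ubiquitin ligase that limits p53, also varied little: class means ran from 14.4 CPM in erythroid to 36.7 CPM in immune cells, a ratio of 2.56, and no neighbours in the order were apart. NPC-like cells had 32.2, 31.3, 33.6 and 30.6 CPM, and PT-like cells 18.0, 19.7, 16.6 and 19.9 CPM, so the mice of both genotypes were interleaved or nearly equal there. The only difference with an unadjusted p below 0.05 was in CD-like cells, outside the lineage, with 20.4, 23.4, 35.2 and 29.4 CPM (log2 difference −0.57 ± 0.22 SE, edgeR adjusted p 0.911). Without mouse 4 that difference was −0.68, and without mouse 3 it was −0.41. The interval lay within 1 log2 unit in 9 of the 16 classes tested.

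Cdkn1a (chr17:29090976-29100727) encodes p21, which halts the cell cycle by inhibiting cyclin-dependent kinases, and its level varied widely between classes and between mice. PT-like cells had the highest class mean, with 268, 358, 558 and 341 CPM, though in mouse 3 CD-like cells held more (766 CPM). Cluster 6 had 180, 229, 265 and 266 CPM. The lowest level was in cluster 15 (mean 17.1 CPM), a ratio of 22.3 between the class means. No neighbours in the order of classes were apart. NPC-like cells were low, with 22.2, 40.6, 32.0 and 18.7 CPM, as were stroma cells with 35.1, 25.0, 25.0 and 17.7 CPM.

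Along the distal nephron and collecting duct the level of Cdkn1a depended on mouse 3. CD-like cells had 87.4, 94.9, 766 and 80.9 CPM. LOH-like cells had 98.8, 175, 397 and 73.6 CPM, and DT-like cells 33.8, 31.3, 193 and 34.2 CPM. In each of these classes mouse 3 was far above the other Trim28f/f mouse, and mouse 4 lay beside or below the Trim28Δ/Δ mice. Mouse 3 was also the highest in ErPT-like cells with 104, 122, 336 and 145 CPM, in UB-like cells with 44.3, 68.4, 183 and 50.7 CPM, and in immune cells with 169, 93.0, 376 and 73.7 CPM. Mouse 3 was above mouse 4 in 17 of 18 classes, by at least 1.5 times in 14, and was the highest of the 4 mice in 12.

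Mouse 3 also had the highest Cdkn1a level in a collecting duct cluster other than cluster 14. The part of cluster 14 in the CD-like level was not tested. In cluster 20, a collecting duct cluster that held cells of all 4 mice (9, 21, 36 and 25 cells), Cdkn1a was at 189, 150, 852 and 154 CPM on plain UMI totals. The low-oxygen sum in that cluster was 459, 561, 3560 and 442 CPM, so both were raised in the same mouse. In DT-like cells the sum was 436, 367, 1758 and 517 CPM, and in LOH-like cells 415, 451, 2197 and 503 CPM. The part of those genes in the level of Cdkn1a was not tested.

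**Figure D2:**
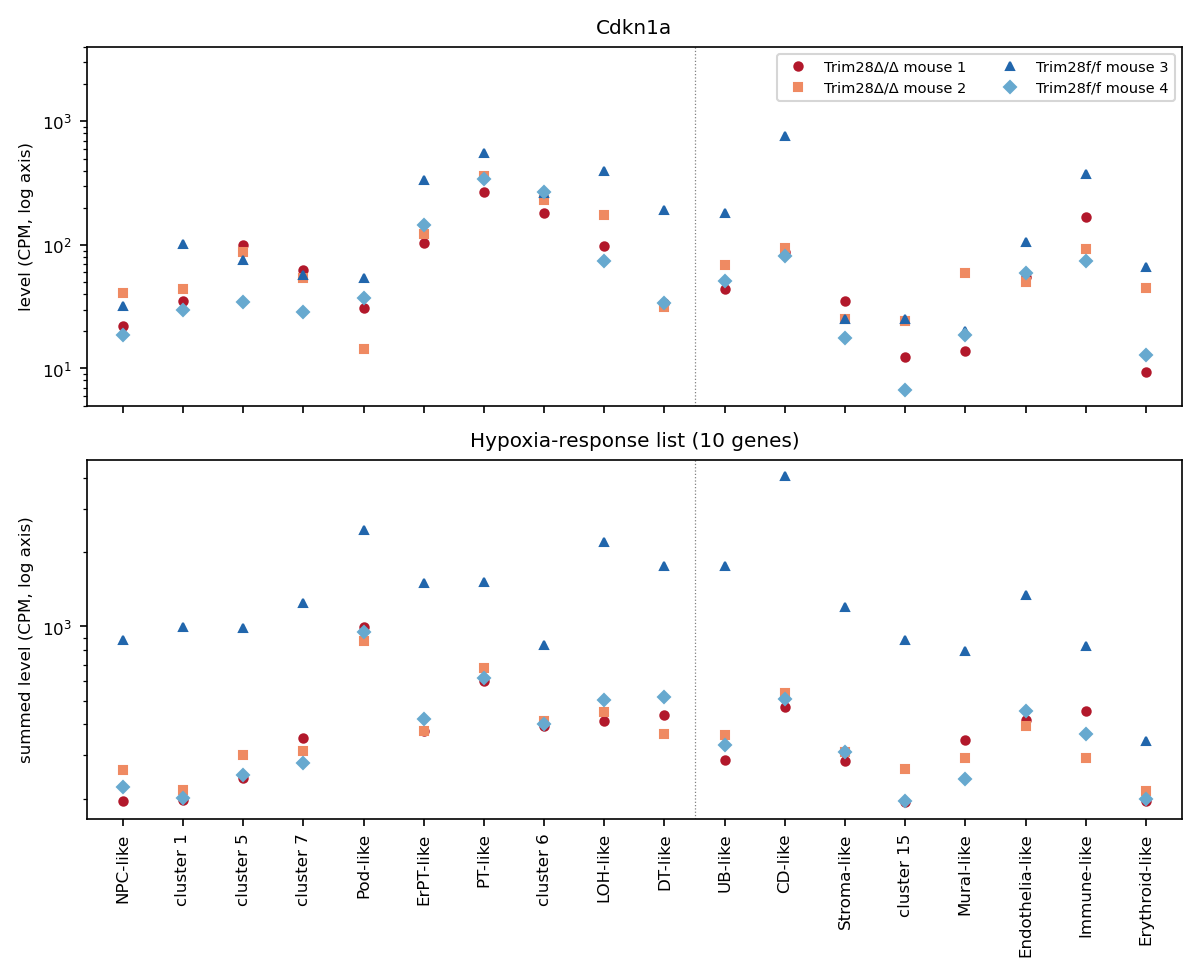
Cdkn1a (upper panel) and the summed level of 10 low-oxygen genes (lower panel) by class, on log scales, with 1 point per class and mouse. Cdkn1a is in CPM on TMM library sizes, and the sum is in CPM on plain UMI totals. In the lower panel the point of mouse 3 is the highest in each of the 18 classes. In the upper panel it is the highest in 12 of them.

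In LOH-like and CD-like cells the share of cells with a Cdkn1a transcript was highest in mouse 3, as the sums were. The share did not follow the sum in every class. In erythroid cells the sum was highest in mouse 3 (65.8 CPM) and the share in mouse 2. Each cell was thinned to 6800 UMIs so that depth did not enter. In LOH-like cells 27.0%, 37.4%, 76.6% and 17.5% of cells then held a UMI in mice 1 to 4 (unthinned 47.0%, 57.0%, 87.8% and 43.7%). In CD-like cells the shares were 37.0%, 35.7%, 92.7% and 37.9% (unthinned 58.0%, 59.4%, 96.5% and 58.6%). For comparison, erythroid cells held a UMI in 9.52%, 22.6%, 10.8% and 8.33% of cells after thinning, at median depths of 8934 to 9799 UMIs against 16891 to 18674 UMIs in LOH-like cells. NPC-like cells, with 11.1%, 18.8%, 18.6% and 10.4%, were above erythroid cells in mice 1, 3 and 4 and below them in mouse 2. PT-like cells were far above them in each mouse (72.3%, 88.0%, 91.8% and 85.1%). Cells with at least 5 Cdkn1a UMIs after thinning made up 45.6% of the CD-like cells of mouse 3, against 0.84%, 2.8% and 0% in mice 1, 2 and 4, the last being 0 of 116 cells, which allows a share of up to 2.59%. The median CD-like cell of mouse 3 held 4 UMIs of Cdkn1a after thinning and that of each other mouse 0.

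Between the genotypes no class passed the test for Cdkn1a, where 0.334% of all gene-by-class tests did. The lowest adjusted p was in DT-like cells, where the log2 difference was −1.90 ± 0.55 SE (edgeR adjusted p 0.256), followed by ErPT-like cells with −1.09 ± 0.32 SE (adjusted p 0.409). These values also changed with the processing while all 4 mice were kept. In ErPT-like cells the difference was −0.39 with the 10 genes and the further targets left out of the clustering, which had used Cdkn1a, −0.40 at a minimum of 2500 UMIs per cell and −0.47 at a cluster resolution of 0.4. In DT-like cells it was −1.14 when a cell's highest tag had to hold 80% of its tag UMIs and −1.24 at the minimum of 2500 UMIs. Cluster 5 had the opposite sign, with 100, 87.3, 75.7 and 34.5 CPM, both Trim28Δ/Δ mice above both Trim28f/f mice (0.73 ± 0.29 SE, edgeR adjusted p 0.449). Without the filter on low counts edgeR called Cdkn1a lower in CD-like (−2.24), DT-like (−1.89), ErPT-like (−1.14) and LOH-like cells (−0.81) and in cluster 1 (−0.76), and higher in cluster 5 (0.71), in a setting that called 1.17% of all tests. At the minimum of 2500 UMIs (0.338% of all tests called) it was called higher in a further, SSB-like class (1.44), named by markers of the S-shaped body. In cluster 6, where mouse 3 gave 22 cells, the difference was −0.37 ± 0.15 SE with all 4 mice (edgeR adjusted p 0.574). It was −0.37 without mouse 3, −0.36 without mouse 4, −0.21 without mouse 1 and −0.55 without mouse 2. In the classes named next the result changed with the Trim28f/f mouse that was kept. Without mouse 3 the median log2 difference over the classes was 0.60, with 1.44 in cluster 5, 0.89 in LOH-like and 0.82 in NPC-like cells. The values without mouse 4 in cluster 5 and NPC-like cells were 0.30 and 0.02. Without mouse 4 the median was −1.04, with −3.07 in CD-like, −2.55 in DT-like and −0.83 in PT-like cells. In LOH-like cells, then, the difference turned direction, 0.89 against −1.54. In CD-like and PT-like cells it was 0.18 and −0.12 without mouse 3, so the sign in CD-like cells turned as well. Without mouse 3 the difference in DT-like cells was −0.07, so that value rested on mouse 3. The difference in ErPT-like cells was then −0.35, smaller but of the same sign. There both Trim28Δ/Δ mice (104 and 122 CPM) also lay below mouse 4 (145 CPM). Leaving out mouse 1 or mouse 2, with mouse 3 kept, gave −1.93 and −1.81 in DT-like cells, both called with edgeR (adjusted p 3.27e-05 and 0.000101), in settings that called 0.334% and 0.341% of all tests.

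**Figure D3:**
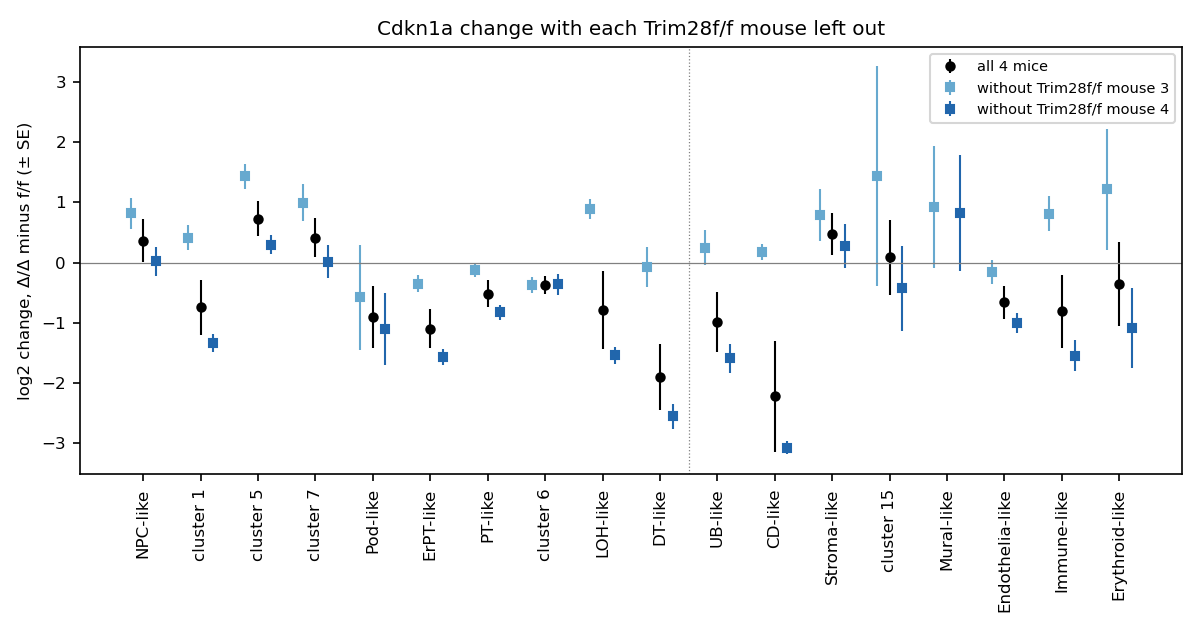
Log2 difference of Cdkn1a, Trim28Δ/Δ minus Trim28f/f, by class with all 4 mice and with mouse 3 or mouse 4 left out. With all 4 mice 17 classes were tested, without mural cells, and the median was −0.66. The median over 18 classes was 0.60 without mouse 3 and −1.04 without mouse 4.

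Ccng1 (chr11:40748552-40755311), which encodes cyclin G1, a p53 target that acts in feedback on MDM2, was highest in DT-like (33.8, 49.4, 39.9 and 41.9 CPM) and LOH-like cells (39.8, 37.7, 34.2 and 29.6 CPM). NPC-like cells had 11.1, 15.7, 18.3 and 15.3 CPM. Erythroid cells, with 12 UMIs in all, were lowest at a mean of 5.95 CPM and apart from the next class, mural cells. The genotypes differed at an unadjusted p below 0.05 in cluster 6, with 21.3, 22, 37.6 and 30.6 CPM (log2 difference −0.58 ± 0.22 SE, edgeR adjusted p 0.544), where mouse 3 gave 22 cells and 19 UMIs of Ccng1.

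Bax (chr7:45461697-45466898) and Bbc3 (chr7:16308393-16318205) encode proteins of the mitochondrial death pathway: BAX forms pores in the outer mitochondrial membrane, and PUMA, the product of Bbc3, releases BAX from its inhibitors. Bax was highest in immune (234, 203, 208 and 214 CPM), mural (mean 211 CPM) and endothelial cells (210, 196, 192 and 194 CPM). Endothelia were apart from the next class in the order, cluster 7 (mean 168 CPM), and erythroid cells (mean 52.0 CPM) were apart from all others. Within the lineage, NPC-like cells had 152, 177, 148 and 154 CPM and PT-like cells 122, 119, 108 and 125 CPM. The 95% interval of the genotype difference was within 1 log2 unit in 17 of 18 classes, so changes of Bax larger than 2-fold were outside it. The lowest unadjusted p was in cluster 5, with 102, 136, 159 and 162 CPM (−0.42 ± 0.16 SE, edgeR adjusted p 0.41). In LOH-like cells mouse 3 (175 CPM) was above the other 3 mice (116, 109 and 116 CPM). Without mouse 4 the log2 difference of Bax was −0.64 there, −0.60 in CD-like cells and −0.40 in cluster 5. Without mouse 3 these differences were −0.04, −0.12 and −0.43.

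Bbc3 was highest in DT-like cells, with 17.7, 25.2, 16.1 and 17.6 CPM, and lowest in cluster 15 (mean 3.55 CPM). Endothelia (mean 18.7 CPM) and LOH-like cells (18.4 CPM) were close to DT-like cells, and erythroid cells (3.56 CPM) to cluster 15. No neighbours in the order were apart. PT-like cells had little, 4.0, 3.32, 12 and 4.51 CPM, with mouse 3 the outlying one. The log2 difference was −1.15 ± 0.47 SE (edgeR adjusted p 0.415), −1.70 without mouse 4 and −0.30 without mouse 3.  Eda2r (chrX:97333840-97377216), which encodes a receptor of ectodysplasin A2 in the tumour necrosis factor receptor family, gave 50 UMIs over all classes and mice and passed the filter in no class. Its highest class mean was 1.36 CPM in cluster 7 (1, 2, 4 and 1 UMIs), and no difference could be measured at this depth.

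Phlda3 (chr1:135766119-135769136) encodes a protein that competes with the kinase AKT for membrane lipids and so restrains growth signals. NPC-like cells had 95.6, 91.8, 52.6 and 98.2 CPM, cluster 7 had 78.1, 76.6, 39.6 and 94.0 CPM, and stroma 60.0, 62.6, 31.0 and 60.0 CPM. Cluster 15 (mean 52.1 CPM), mural cells (49.7 CPM) and podocytes (42.9 CPM) followed. PT-like cells were lowest, with 3.20, 3.32, 3.15 and 3.45 CPM, a ratio of 25.8 between the class means. Endothelia (mean 33.8 CPM) were apart from the next class, ErPT-like cells (20.3 CPM). After thinning, 48.9%, 43.5%, 35.8% and 41.2% of NPC-like cells held a UMI of Phlda3, against 1.63%, 1.2%, 1.49% and 0.83% of PT-like cells and 4.76%, 9.68%, 0% and 6.25% of erythroid cells. Mouse 3 was the low one in NPC-like cells, cluster 7 and stroma. The genotypes overlapped in the first 2 of these, and in stroma both Trim28Δ/Δ mice lay above both Trim28f/f mice, by a narrow margin over mouse 4. Without mouse 4, a setting that called 9.67% of all tests, Phlda3 was called higher in Trim28Δ/Δ in NPC-like cells (0.82), cluster 7 (0.96) and stroma (0.98), the last outside the reach of the transgene, and lower in CD-like cells (−1.65). Without mouse 3 these differences were −0.06, −0.29, 0.05 and 0.17, none of them called.

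Sesn2 (chr4:132492032-132510501) encodes sestrin 2, a stress-inducible protein that lowers mTORC1 signalling when leucine is short. The order of its levels ran from NPC-like cells (2.01, 2.14, 2.54 and 3.34 CPM, 2 to 24 UMIs per mouse) to DT-like cells (22.8, 29.2, 17.8 and 24.2 CPM). CD-like and LOH-like cells were next, with 17.0, 15.4, 25.7 and 16.3 CPM and 20.4, 14.9, 23.8 and 15.2 CPM. No class had an unadjusted p below 0.05 between the genotypes, and the smallest adjusted p was 0.691 with edgeR. Without mouse 4 the difference of Sesn2 in CD-like cells was −0.68, and without mouse 3 it was −0.02. Neighbouring classes overlapped in every step of the order.

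Trp53inp1 (chr4:11156431-11174379) encodes a stress-induced protein of nuclear bodies that promotes p53 activity and autophagy. Podocytes stood out with 51.6, 65.1, 31.5 and 40.0 CPM (15, 9, 25 and 15 UMIs), apart from the next class, mural cells (mean 19.0 CPM). DT-like cells followed, and cluster 1 (3.75 CPM) and erythroid cells (1.80 CPM) were lowest. After thinning, 23.1%, 28.6%, 25.8% and 26.5% of podocytes held a UMI, against 0%, 0%, 1.54% and 0% of erythroid cells at median depths of 9296 to 10748 and 8934 to 9799 UMIs.

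Of the 10 genes, Trp53inp1 had both Trim28Δ/Δ mice above both Trim28f/f mice in the most lineage classes, 6 of 10, and the next was Sesn2 with 3. NPC-like cells had 13.1, 10.7, 3.31 and 7.10 CPM (13, 15, 13 and 51 UMIs), a log2 difference of 1.11 ± 0.46 SE. DT-like cells had 27.0, 22.2, 10.4 and 11 CPM (1.21 ± 0.35 SE), cluster 7 had 20.2, 21.1, 5.54 and 12.2 CPM (1.25 ± 0.45 SE), and ErPT-like cells 12, 11.9, 6.29 and 7.39 CPM (0.82 ± 0.34 SE). These were the 4 classes with an edgeR unadjusted p below 0.05. In each both Trim28Δ/Δ mice were above both Trim28f/f mice, which a choice by that threshold makes likely. None of the 4 passed the test, with edgeR adjusted p from 0.26 in DT-like cells to 0.655 in cluster 7. Of the 13 classes tested, 10 had a positive and 3 a negative difference, the lowest −0.34 in cluster 1. All classes come from the same 4 mice and are not independent of each other. Both Trim28Δ/Δ mice were above in 6 of the 10 lineage classes and below in 1, where 18.8% of all lineage tests had both above and 18.8% both below. Of the other classes 3 were tested (CD-like, endothelia and stroma) and both were above in none, where 16.5% of the tests outside the lineage were. In NPC-like cells the lower value was that of mouse 3. Without mouse 4, which called 9.67% of all tests, Trp53inp1 was called higher in cluster 5 (1.51), cluster 7 (1.88) and DT-like cells (1.25), and without mouse 3, mouse 1 or mouse 2 in no class. Without mouse 3 the differences were 0.73 in NPC-like cells, 0.75 in cluster 7, 1.16 in DT-like and 0.68 in ErPT-like cells, and 0.21 in cluster 5. Without mouse 4 that in NPC-like cells was 1.80 and not called. The gene rests on 4 to 153 UMIs per class over the 4 mice.

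**Figure D4:**
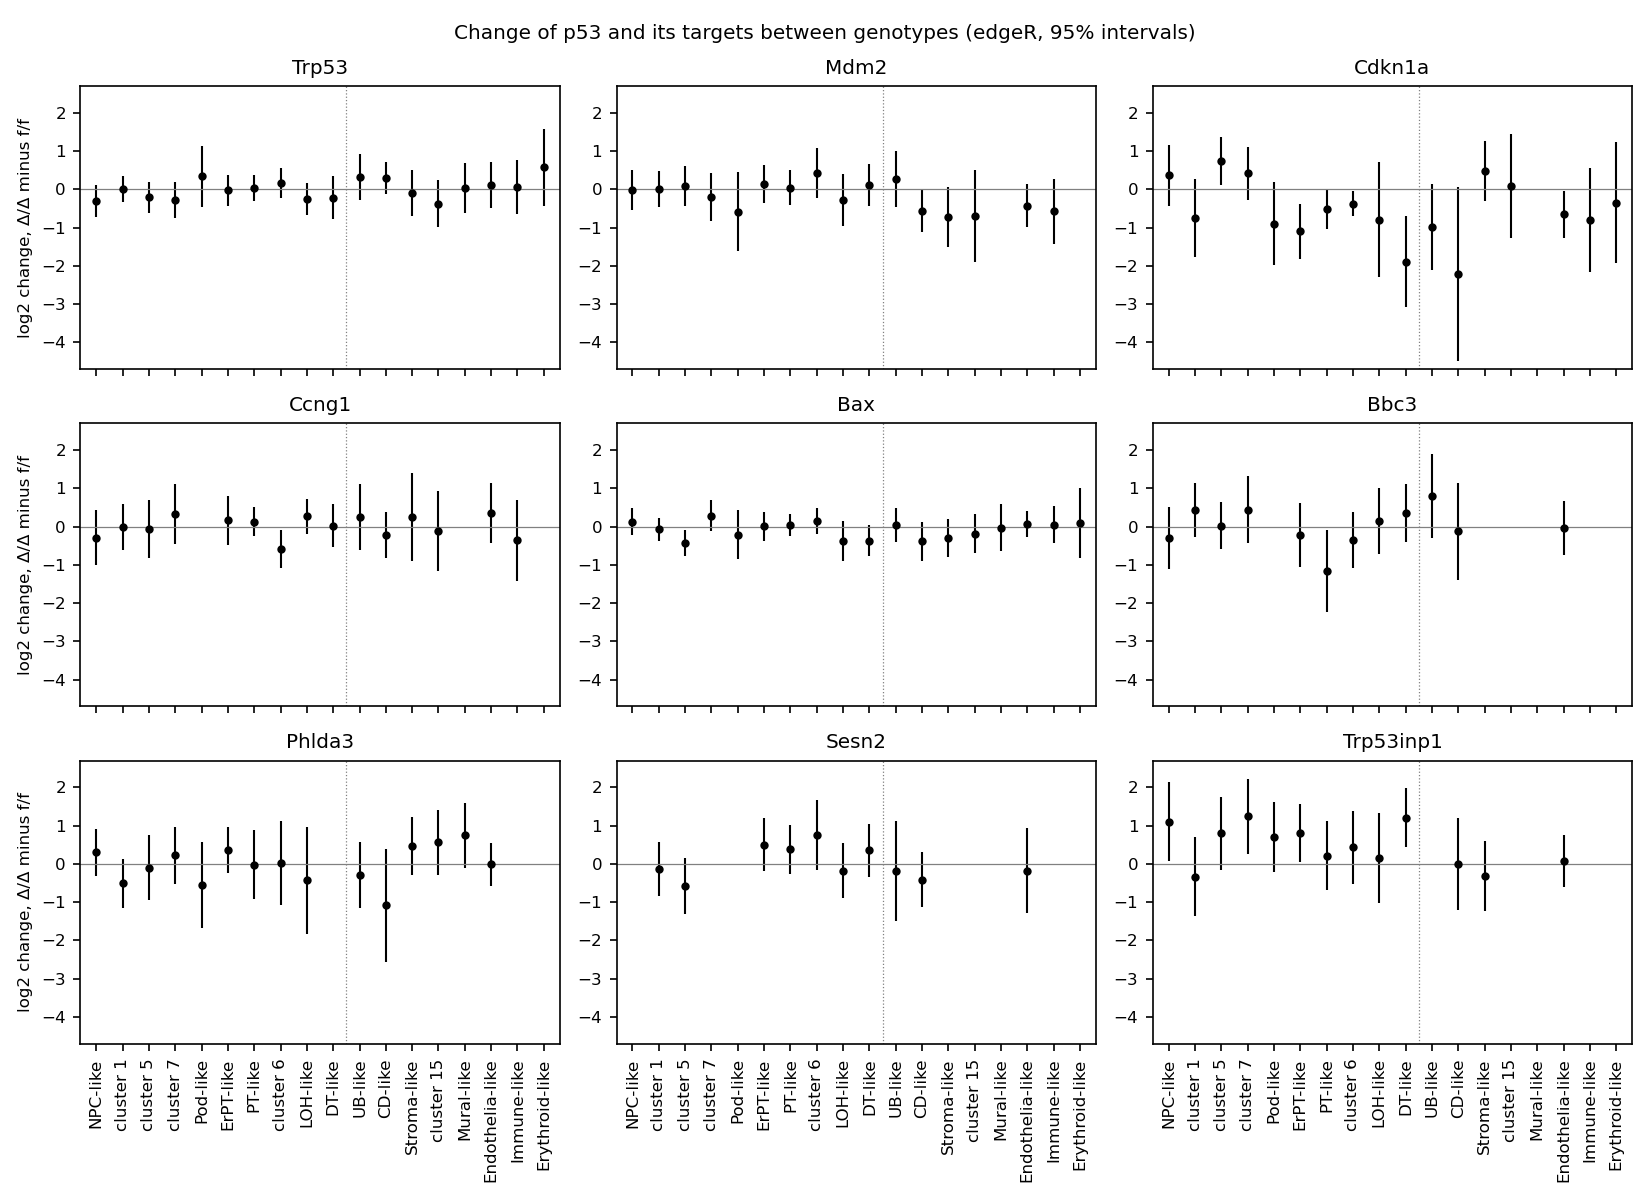
Log2 difference of each gene except Eda2r, Trim28Δ/Δ minus Trim28f/f, by class with its 95% interval from edgeR. None of the 134 tests passed an adjusted p of 0.05, and 61 intervals lie within 1 log2 unit of zero.

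Over all 10 genes and 18 classes, 180 combinations, 134 could be tested after the filter on low counts, and 9 genes were tested in at least 1 class. None was called at an adjusted p of 0.05 with edgeR, where 0.334% of all gene-by-class tests were (551 of 165187). By class that share was 1.57% in NPC-like cells, 0.73% in cluster 5, 0.535% in DT-like, 0.506% in PT-like and 0.489% in Pod-like cells, 0.478% in cluster 6, 0.373% in ErPT-like cells, 0.275% in cluster 7, 0.206% in cluster 1, 0.154% in cluster 15, 0.0817% in LOH-like cells and 0 in the other 7 classes. At an unadjusted p below 0.05 there were 14, of which 5 were higher and 9 lower in Trim28Δ/Δ, against 6.71% of all tests. The lineage held 12 of them, 5 higher and 7 lower, where 7.91% of lineage tests (3.95% higher and 3.96% lower) passed that threshold. The other classes held 2, both lower (Mdm2 in CD-like cells and Cdkn1a in endothelia), where 4.77% of tests (1.96% higher and 2.8% lower) did. Of the 10 genes, 9 could be tested in ErPT-like, PT-like and LOH-like cells and in clusters 1, 5 and 6. In NPC-like and DT-like cells and cluster 7 the number was 8, and in Pod-like cells 6. Outside the lineage it was 9 in CD-like cells and endothelia, 8 in UB-like cells and 7 in stroma. It was 6 in cluster 15, 5 in immune cells and 3 in mural and in erythroid cells. DESeq2, which called 0.305% of all tests, called none of the 10 genes and had 2 at an unadjusted p below 0.05. The median log2 difference of the 134 tests was −0.01, as was that of all genes. An interval within 1 log2 unit of zero was reached in 61 of the 134, and in the other 73 the interval reached past a 2-fold change in at least 1 direction.

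The change in each lineage class was also compared with the change in stroma, which does not derive from Six2-expressing cells, in a fit with the mouse as a block. No gene of the 10 was called, where 0.234% of all tests were. Cdkn1a in DT-like cells came closest, with a difference of changes of −2.24 ± 0.48 SE (edgeR adjusted p 0.0699), and ErPT-like cells gave −1.63 ± 0.35 SE (adjusted p 0.0876). Without mouse 4 these differences of changes were −2.86 in DT-like and −1.89 in ErPT-like cells, and without mouse 2 that in ErPT-like cells was −1.94. Whether a gene was called depended on the mouse left out. The share of all tests called in those settings was not counted. For Trp53inp1 the difference of changes was 1.57 ± 0.57 SE in NPC-like cells (edgeR adjusted p 0.405) and 1.63 ± 0.56 SE in cluster 7 (adjusted p 0.579).

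Further lists of the pathway were counted in the same fits. Of 30 other p53 targets, such as Aen, Zmat3, Fas, Pmaip1, Plk2, Btg2 and Gdf15, 29 were tested in 346 gene-by-class tests with edgeR, and none was called. At an unadjusted p below 0.05, 10 were higher and 13 lower in Trim28Δ/Δ, where 6.71% of all tests passed that threshold, the median log2 difference was 0.01, and DESeq2 called none. Of 14 apoptosis genes, all were tested (216 tests), none was called by edgeR, and 10 were higher and 6 lower at an unadjusted p below 0.05 (6.71% of all tests), with a median of 0.06. Of 13 regulators of p53, 12 were tested (194 tests), and the 8 calls were all Trim28. The summed level of the 30 targets was highest in mouse 3 in 4 of 18 classes, with a median ratio of mouse 3 to mouse 4 of 0.96, whereas that of genes of the integrated stress response was highest in mouse 3 in 15 of 18 (median ratio 1.45), of immediate early genes in 11 (1.27) and of cell cycle genes in 5 (1.1).

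The genes whose levels ran most like those of the 10 were found over the 72 sums of a class in a mouse, as the Pearson correlation of log2(CPM + 10) among 10330 genes that reached 20 CPM. The sums share libraries and depth, so the values are descriptions. For Trp53 they included Rbbp4 (0.84) and Snrpc (0.82), for Bax Capza1 (0.86), Rac1 (0.83) and Brk1 (0.83), and for Mdm2 Gtf2f2 (0.66), Zfp263 (0.65) and Smg1 (0.61). Cdkn1a ran most like Nceh1 (0.86), Ahcyl2 (0.83) and Atp6v1b2 (0.81), and Ccng1 like Atp6v1a (0.79), Slc25a11 (0.79) and 0610012G03Rik (0.79). Phlda3 ran like Tuba1a (0.85), Fkbp7 (0.83) and D16Ertd472e (0.82), Sesn2 like Zfp467 (0.78), Esrrg (0.78) and Cdh1 (0.77), and Trp53inp1 like Mob2 (0.75), Htra1 (0.75) and Kif1b (0.74). Bbc3 and Eda2r had no class mean of 20 CPM and were left out.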

How the data were processed

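Single cells of the 4 mice were prepared with the 10x Genomics 3′ v3.1 chemistry and a multiplexing tag per mouse. The deposited matrix holds raw counts (UMIs) of 32285 genes and 12 tags for 3921239 barcodes, made by the authors with Cell Ranger 6.0.0. Which genome build lies behind the counts was not stated for them. The gene positions printed are those of GRCm38 (GENCODE M21). Barcodes of at least 6891 UMIs, the limit that an order-of-magnitude rule gives for 24000 expected cells, were kept if 200 or more genes were detected and no more than 10% of UMIs were mitochondrial (19272). Tags were called with HTODemux (Seurat 5.3.0, positive quantile 0.99), which removed 4575 cells with several tags and 2808 with none. A further 4540 cells carried 1 of the tags that name no mouse and were not used. Clusters came from SCTransform, 3000 variable genes, 30 principal components and a resolution of 0.8, and were named from marker lists with thresholds set after the clusters were seen. Of the 10 genes, Cdkn1a and Phlda3 were among the variable genes. Doublets within a mouse were only removed in an alternative (Scrublet in scanpy 1.11.5, which marked 7.74% of the cells).

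UMIs were summed per mouse and class, and edgeR 4.0.16 compared the genotypes by its quasi-likelihood test (filterByExpr, TMM, all genes of a class together, Benjamini-Hochberg adjustment, threshold 0.05). The SE is the absolute log2 difference over the square root of F. The mouse was the replicate. Totals per mouse were 25930831, 30274371, 52694650 and 36924683 UMIs, and binomial intervals and limits of a 0 (3 counts) cover counting error only. The script was checked on simulated counts. Alternatives were DESeq2 1.42.0, RLE size factors, no filter on low counts, each mouse left out, other tag calls, other UMI limits and other clusterings. All 10 genes were named, and of the other lists the genes called in a class. The genes and lists were chosen with earlier results of these data known. The 6 bulk samples were not analysed here, and 1 gene among those most like Trp53 is not reported here. The labels and the methods give different embryonic days, and that of the labels is printed.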

Additional observations from a re-analysis of the deposited data

Results flagged for a closer look

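Groups of 2 mice are too small for a search for outlying samples. For 9 of the 10 genes both Trim28Δ/Δ mice lay above both Trim28f/f mice in some classes and below them in others. These opposite directions were not tested beyond the comparison of the lineage classes with stroma, in which none of the genes was called. The counts cover all 18 classes, among them classes in which the gene had too few UMIs to be tested, such as Bbc3 in erythroid, immune and Pod-like cells. Of the tests alone, 17.9% had both Trim28Δ/Δ mice above and 18% both below.

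Trp53 was above in 1 class and below in 4. Mdm2 was above in 2 and below in 6, Cdkn1a above in 2 and below in 5, and Ccng1 above in 2 and below in 3. Of the death genes, Bax was above in 4 and below in 5 and Bbc3 above in 3 and below in 6. Phlda3 and Sesn2 were each above in 3 classes and below in 2. Trp53inp1 was above in 6, all of the nephron lineage, and below in 2.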

How the results depend on the processing

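No gene of the 10 was called with the settings of the report. The count stayed at 0 with DESeq2, with RLE size factors, with k-means or an 80% rule for the tags, with Scrublet doublets removed, with the genes left out of the clustering, at resolutions of 0.4 and 1.2, and, both chosen after seeing the data, with tags normalized across cells and without the cluster of mouse 3. It was 6 without the filter on low counts, all Cdkn1a, 5 lower and 1 higher (1.17% of all tests called), and 1 at a minimum of 2500 UMIs per cell, again Cdkn1a, higher (0.338%). Without one mouse it ran from 1 to 23: 1 without mouse 1 or mouse 2 (0.334% and 0.341% of all tests called), 4 without mouse 3 (2.07%) and 23 of 136 tests without mouse 4 (9.67%). For the 30 further targets the count was 0, 8 without the filter, and 0 to 45 without one mouse, the latter without mouse 4, where 9.67% of all tests were called. Among single values, Trp53inp1 in NPC-like cells was 1.74 in place of 1.11 with tags normalized across cells. In ErPT-like cells that setting gave 0.44 in place of 0.82. With the 80% rule Trp53inp1 was 0.87 in NPC-like and 0.57 in ErPT-like cells. At a minimum of 2500 UMIs it was 0.91 in place of 1.21 in DT-like cells. The values of Cdkn1a in DT-like and ErPT-like cells were smaller in fold in some settings, as given beside them. The count of differences from stroma was 0 and depended on the mouse left out. With a lone mouse in a genotype, that mouse is assumed to vary as the other pair does. No paired analysis was possible because the numbers of the mice are not shared between the genotypes. The cause of these shifts was not tested. With 2 mice per genotype, 73 of the 134 intervals reach past a 2-fold change, and that of Eda2r could not be measured.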
